A study of Homo sapiens with 6 samples.

Results

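Translation initiation factors were followed at the RNA level in PANC-1, a long-established line from a human pancreatic duct tumour, after silencing of the m6A methyltransferase METTL16. The genes were taken from the deposited gene table by name. Of its 58735 rows, 132 carry a name that starts with EIF and a digit from 1 to 6. Pseudogene names (72 rows), antisense or divergent transcripts (4 rows) and the kinase genes EIF2AK2 and EIF2AK3 were left out, which gave 54 genes, all protein-coding in GENCODE v44. They comprise 6 genes of the eIF1 and eIF6 groups, 13 of eIF2, 14 of eIF3, 16 of eIF4 and 5 of eIF5. RNA-seq covered 3 samples that received a control siRNA (si-NC) and 3 whose siRNA targeted METTL16 (si-METTL16). The sample titles name the controls si-NC, while a further label calls their transfection WT. The methods describe biological triplicates and stable transfection, and the question of the comparison was which transcripts lie downstream of METTL16.

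Initiation factors bring the small ribosomal subunit, the initiator tRNA and the mRNA together. The eIF2 complex carries the initiator tRNA and is recharged with GTP by eIF2B, and eIF3 is the large scaffold on the small subunit. The eIF4 factors bind the mRNA cap (eIF4E), unwind the leader (eIF4A with eIF4B or eIF4H) and join cap to ribosome (eIF4G), while the 4E-binding proteins keep eIF4E away from eIF4G. The proteins eIF1, eIF1A and eIF5 control scanning and start codon choice, eIF5B joins the large subunit, and eIF6 holds free large subunits apart from small ones.

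The perturbation is shown first, because every comparison rests on it. The study's oligonucleotide list gives 3 siRNA targets in METTL16 and a control, and the text does not say which of them were used for sequencing. The silenced samples are titled si-METTL16-1, si-METTL16-2 and si-METTL16-3, numbered as the siRNAs are, and the controls si-NC1, si-NC2 and si-NC3. Whether these numbers stand for siRNAs or for replicates is not stated, so the 2 cannot be told apart within the silenced group. They are printed as the target strand, with capitals on the bases that pair with positions 2 to 8 of the guide strand.
METTL16-1: ccttgagactcAACTATAt
METTL16-2: ccgcctagttcTGTTAATa
METTL16-3: ccaccaagtaaGCGAAGAa
NC: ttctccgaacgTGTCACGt
Each of the METTL16 targets was found whole in transcripts of METTL16 in GENCODE v44 (7, 5 and 4 of 10 transcripts, in the order printed) and the control in 0. None of the 4 was found whole in a transcript of the 54 factor genes, where the longest identical run was 11 bases. Such a run was found in EIF2B5 for METTL16-1 and in EIF2D for METTL16-2. EIF2B5 was among the genes that rose after silencing and EIF2D among those that fell. Matches of the capital bases alone were not searched, so effects of the siRNAs on the factor genes themselves were not tested. METTL16 had 91.5, 96.7 and 101 CPM (read counts scaled to library size by the TMM method) in si-NC replicates 1, 2 and 3. It had 34.8, 33.9 and 34.9 CPM in si-METTL16 replicates 1, 2 and 3, a log2 fold change of -1.48 (SE, the standard error, 0.07, adjusted p = 8.34e-05). Total counts lay between 15725298 and 18054436 per sample, so that 3 counts correspond to 0.167 to 0.192 CPM. The epithelial genes KRT8 and KRT18 were counted at 961 to 2498 CPM and SOX9 at 167 to 203 CPM and KRT19 at 54.0 to 213 CPM, while KRT7 and EPCAM stayed between 3.23 and 12.7 CPM. Genes of blood, endothelium, acinar and endocrine cells were at most 0.799 CPM except CD14 (up to 3.71 CPM), and of the fibroblast genes DCN was at most 0.114 CPM while COL1A1 reached 839 CPM. In such bulk RNA, fewer cells of a type and less RNA per cell cannot be told apart.

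The initiation factor transcripts changed in both directions after METTL16 silencing. Of the 54 genes, 50 passed the filter on low counts, and 24 of them (48%) were differentially expressed, 13 higher and 11 lower. Over the whole table, 35.9% of the 15089 tested genes passed the same threshold, an adjusted p under 0.05 from edgeR's quasi-likelihood test. By direction this background was 18.4% higher and 17.5% lower. For 31 of the 50 genes no silenced sample fell within the range of the controls or the reverse, 18 higher and 13 lower, and all 24 called genes were among them. Such separation held for 50.9% of all tested genes, 25.7% higher and 25.2% lower. The factor genes are counted more deeply than most, with a median of 140 CPM against 23.2 CPM over all tested genes. The changes were moderate. The median absolute log2 fold change of the called factor genes was 0.40, against 0.61 for all called genes, and 1 gene, EIF5, reached an absolute value of 1. The median log2 fold change was 0.05 over the 50 genes and -0.00 (-0.0045) over all tested genes. EIF1AY, EIF4E1B, EIF4E3 and EIF4EBP3 did not pass the filter and were not tested.

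**Figure D1:**
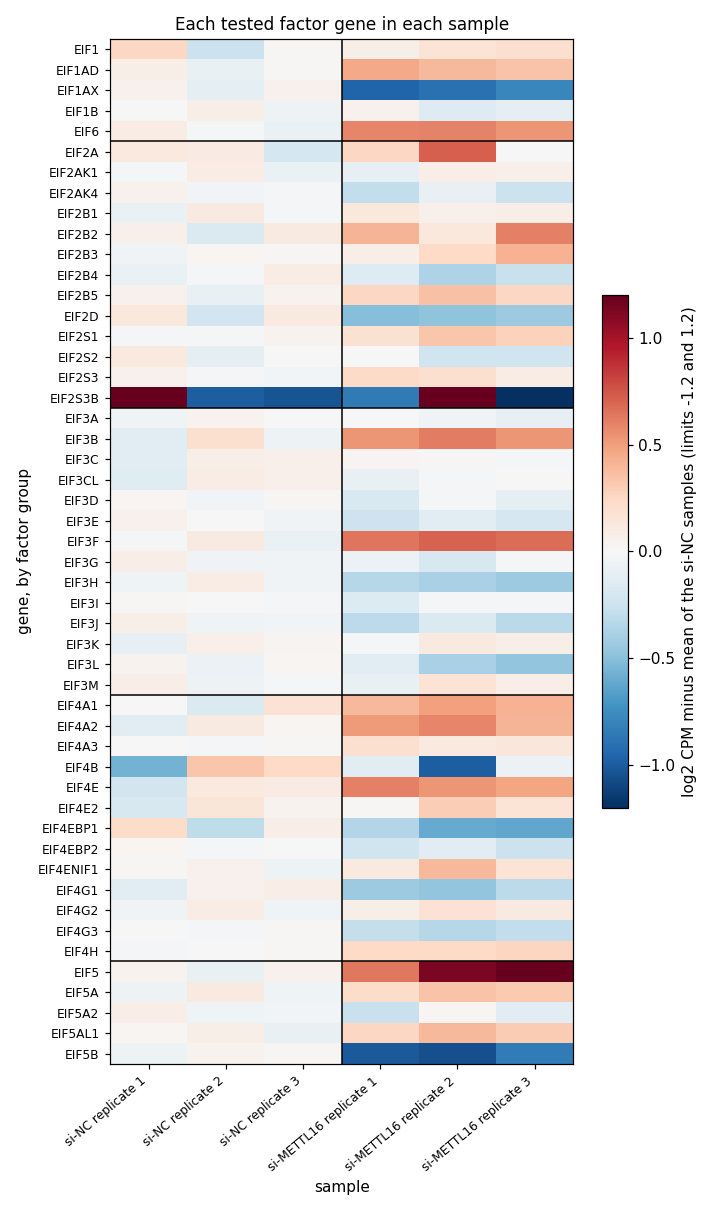
Heat map of the 50 tested initiation factor genes (vertical axis, by factor group) in the 6 samples (horizontal axis). Colour gives log2 CPM minus the mean of the 3 si-NC samples, with the scale limited at -1.2 and 1.2. EIF1AX and EIF5B were blue and EIF3F, EIF5 and EIF6 red in all 3 si-METTL16 samples, while EIF4B and EIF2S3B varied within groups.

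**Figure D2:**
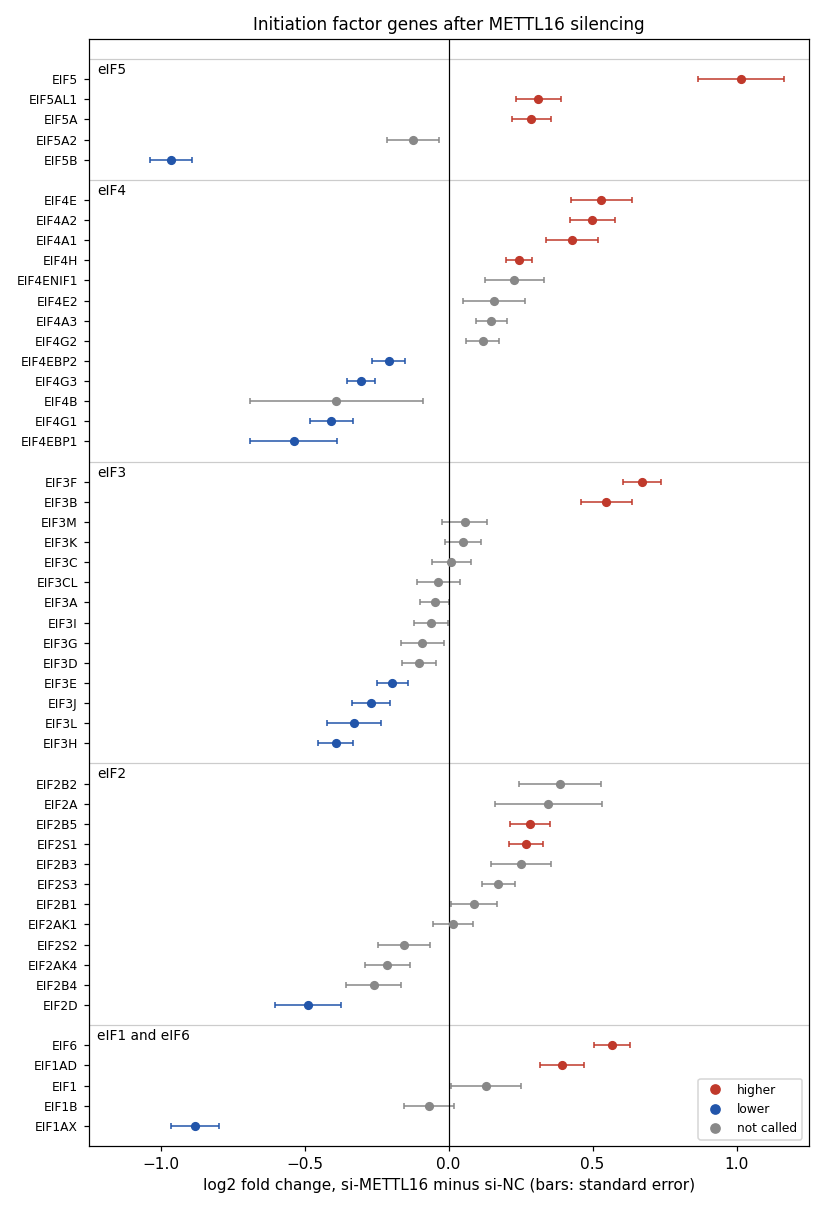
Log2 fold change of each tested factor gene (horizontal axis, si-METTL16 minus si-NC, with its standard error), sorted within factor groups (vertical axis). Red and blue mark the 13 genes called higher and 11 called lower, grey those not called. EIF2S3B, whose standard error is 1.21, is left out.

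The 3 largest absolute changes among the tested factor genes were those of EIF5, EIF5B and EIF1AX, whose proteins act at the start codon and at the joining of the ribosomal subunits. EIF5, which encodes the GTPase-activating protein of eIF2 (chromosome 14 from 103333544 to 103345025 in the deposited table), was counted at 67.3, 61.5 and 67.7 CPM in si-NC replicates 1 to 3. It reached 101, 143 and 153 CPM in the si-METTL16 replicates, 65.5 ± 3.44 against 132 ± 27.4 CPM (SD, n = 3 each). All silenced samples were above all controls, and the silenced samples also spread more widely. This is a log2 fold change of 1.01 (SE 0.15, adjusted p = 0.00228), or 2.02-fold. EIF5B, the GTPase of subunit joining (chromosome 2 from 99337353 to 99401326), went the other way, from 291, 312 and 306 CPM in si-NC to 151, 146 and 170 CPM in si-METTL16 cells. Its log2 fold change was -0.96 (SE 0.07, adjusted p = 1.83e-04), which leaves 51.3% of the control level. Exons of EIF5B and of REV1 on the opposite strand share 852 bases, and REV1 was counted 3523 times over the 6 samples against 23387 for EIF5B. EIF1AX, the X-linked gene of eIF1A (chromosome X from 20124518 to 20141844), had 73.2, 65.6 and 72.8 CPM in si-NC and 36.2, 38.0 and 40.8 CPM after silencing. It fell by 0.88 on the log2 scale (SE 0.08, adjusted p = 3.98e-04), to 54.3% of the control. EIF6, which keeps large subunits from joining (chromosome 20 from 35278911 to 35284985), rose from 121, 113 and 108 CPM to 171, 172 and 164 CPM. The log2 fold change of EIF6 was 0.57 (SE 0.06, adjusted p = 7.19e-04). The groups of EIF5, EIF5B, EIF1AX and EIF6 were each fully apart, and each of these genes was called in all 6 fits that left out a sample.

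The remaining genes of the eIF1 group moved less. EIF1AD, which encodes a protein with an eIF1A domain and is not itself an established initiation factor, rose from 50.5, 45.0 and 48.5 CPM to 65.6, 62.8 and 60.8 CPM. The log2 fold change was 0.39 (SE 0.08, adjusted p = 0.00682). EIF1, the scanning factor, was not called (0.13 on the log2 scale, adjusted p = 0.448). Its si-NC samples spread from 115 to 164 CPM and held the si-METTL16 samples, at 145 to 158 CPM, within their range. EIF1B, the close relative of EIF1, came to -0.07 on the log2 scale (adjusted p = 0.578). Within the eIF1 and eIF6 groups, 2 of 5 tested genes were thus called higher and 1 lower, against 18.4% and 17.5% of all tested genes.

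**Figure D3:**
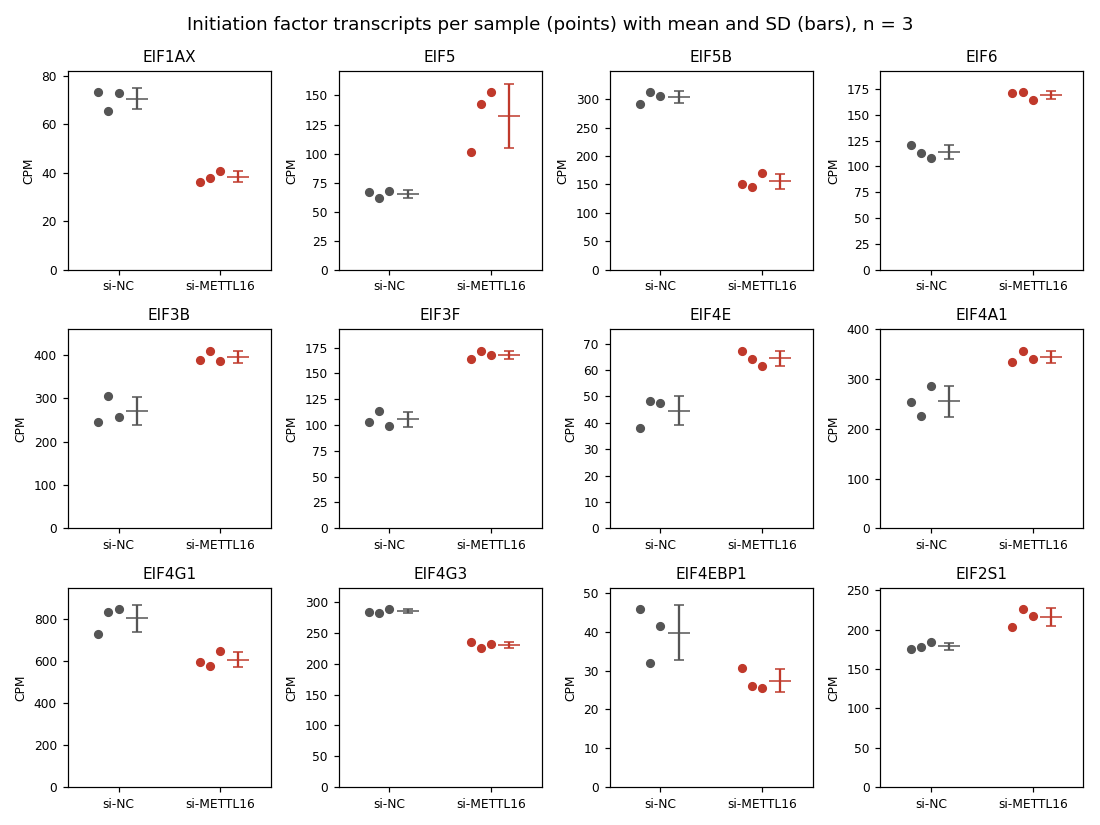
CPM (vertical axes, from 0) of 12 factor genes in si-NC (grey) and si-METTL16 (red) samples. Points are samples, and bars give the mean and SD of 3 samples. EIF5, EIF6, EIF3B, EIF3F, EIF4E, EIF4A1 and EIF2S1 lay higher and EIF1AX, EIF5B, EIF4G1, EIF4G3 and EIF4EBP1 lower in every si-METTL16 sample than in any si-NC sample.

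Of the 14 eIF3 genes, 2 rose, 4 fell and 8 were not called, and their median log2 fold change was -0.05. The 6 calls are 42.9% of the eIF3 genes, near the 35.9% of all tested genes. EIF3F, a subunit of the MPN type (chromosome 11 from 7970251 to 8001862), had 103, 114 and 99.5 CPM in si-NC and 164, 172 and 168 CPM after silencing. Its log2 fold change of 0.67 (SE 0.07, adjusted p = 4.82e-04) was the highest of the complex. EIF3B, a core scaffold subunit (chromosome 7 from 2354086 to 2380745), rose from 246, 306 and 258 CPM to 387, 410 and 387 CPM, a log2 fold change of 0.55 (SE 0.09, adjusted p = 0.0031). For EIF3F and EIF3B the lowest silenced sample was well above the highest control, and both were called in all 6 fits that left out a sample.

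The other MPN subunit, EIF3H, moved opposite to EIF3F. It was counted at 291, 323 and 295 CPM in si-NC and at 239, 230 and 223 CPM after silencing (log2 fold change -0.39, SE 0.06, adjusted p = 0.00287), and it was called in every fit that left out a sample. EIF3E, a PCI-domain subunit, had 526, 504 and 491 CPM in si-NC and 427, 460 and 441 CPM after silencing (log2 fold change -0.20, adjusted p = 0.0262). The loosely bound subunit EIF3J went from 159, 147 and 148 CPM to 121, 134 and 121 CPM (log2 fold change -0.27, adjusted p = 0.0183). For EIF3L the values were 272, 252 and 268 CPM in si-NC and 240, 201 and 189 CPM after silencing (log2 fold change -0.33, adjusted p = 0.0316). The groups of these 4 genes did not overlap, but 3 of the calls depended on single samples. EIF3E lost its call without si-NC replicate 1 or 2 or si-METTL16 replicate 1 or 3, with adjusted p-values from 0.0507 to 0.069. EIF3J lost it without si-NC replicate 1 or si-METTL16 replicate 1 or 3 (0.0564 to 0.0639), and EIF3L without si-NC replicate 1 or 3 or si-METTL16 replicate 2 or 3 (0.0864 to 0.095), and EIF3L was also not called without the filter on low counts (0.057). The number of called eIF3 genes was thus 3 in place of 6 without si-NC replicate 1, and also without si-METTL16 replicate 3. EIF3L shares 460 exonic bases with ANKRD54, EIF3J 187 with SPG11 and EIF3H 110 with UTP23, each on the opposite strand.

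The largest eIF3 subunit, EIF3A, was among the 8 genes without a call. It had 902, 962 and 940 CPM in si-NC and 933, 905 and 872 CPM after silencing, overlapping groups with a log2 fold change of -0.05 (SE 0.05, adjusted p = 0.491). EIF3C and EIF3CL, near-identical copies on chromosome 16, had log2 fold changes of 0.01 and -0.04, and their sum had -0.01. EIF3D, EIF3G, EIF3I, EIF3K and EIF3M lay between -0.10 and 0.06. Levels of the subunits differed much more than the changes did. Per kilobase of the MANE Select transcript, the si-NC mean ran from 15.2 CPM for EIF3F to 991 CPM for EIF3K, with EIF3E at 251 and EIF3I at 194 CPM per kilobase. The deposited FPKM placed EIF3F lowest (8.06) and EIF3K highest (144), but EIF3A was next to EIF3K on that scale, at 116. The scales use different lengths, and the length behind the FPKM was between 0.969 and 13.0 times the MANE Select transcript among the factor genes. In CPM, which uses no length, the si-NC mean was lowest for EIF3G (94.2, against 105 for EIF3F) and highest for EIF3A (934, against 765 for EIF3K).

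Of the 13 tested genes with eIF4 names, 4 were called higher and 4 lower (61.5%, against 35.9% of all tested genes). EIF4E, the cap-binding protein (chromosome 4 from 98871684 to 98930637), had 38.2, 48.1 and 47.5 CPM in si-NC and 67.4, 64.2 and 61.6 CPM after silencing, a log2 fold change of 0.53 (SE 0.11, adjusted p = 0.00761). The helicase genes rose as well. EIF4A1 went from 254, 225 and 287 CPM to 334, 357 and 340 CPM (log2 fold change 0.43, SE 0.09, adjusted p = 0.00978). EIF4A2 went from 185, 217 and 206 CPM to 288, 303 and 269 CPM (log2 fold change 0.50, SE 0.08, adjusted p = 0.00297). EIF4H, a helicase cofactor, was the most even of these genes, at 338, 342 and 345 CPM against 404, 402 and 408 CPM (log2 fold change 0.25, SE 0.04, adjusted p = 0.00539). In each of these 4 genes all silenced samples lay above all controls. Transcripts that run from SENP3 into EIF4A1 were listed as a gene of their own with 4071 counts, against 30298 for EIF4A1. The lncRNA AC016876.2, with 2076 counts, shares 2187 exonic bases with EIF4A1 on the same strand.

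Both eIF4G scaffold genes that bind eIF4E fell. EIF4G1 (chromosome 3 from 184314495 to 184335358) had 733, 834 and 850 CPM in si-NC and 596, 579 and 647 CPM after silencing, a log2 fold change of -0.41 (SE 0.07, adjusted p = 0.00543). EIF4G3 had 284, 283 and 289 CPM against 235, 226 and 233 CPM (log2 fold change -0.30, SE 0.05, adjusted p = 0.00295). EIF4G2, which lacks the eIF4E-binding part and is the most counted factor gene at 1561 to 1822 CPM, was not called (0.12 on the log2 scale, adjusted p = 0.148). The repressors of eIF4E also had fewer counts. EIF4EBP1 had 45.9, 31.9 and 41.6 CPM in si-NC and 30.8, 25.9 and 25.5 CPM after silencing (log2 fold change -0.54, SE 0.15, adjusted p = 0.0283), and its lowest control and highest silenced sample were closer than the SD of either group. EIF4EBP2 had 133, 129 and 132 CPM against 111, 120 and 110 CPM (log2 fold change -0.21, SE 0.06, adjusted p = 0.0293). The call of EIF4EBP1 was lost without si-NC replicate 1 or 3 or si-METTL16 replicate 2 or 3 (adjusted p from 0.0814 to 0.0862). That of EIF4EBP2 was lost without si-NC replicate 1, 2 or 3 or si-METTL16 replicate 1 or 3 (0.0542 to 0.0945) and without the filter on low counts (0.0627). The other 6 called eIF4 genes were called in every fit that left out a sample.

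EIF4B, the activator of the eIF4A helicase, was not called, and its counts spread widely within both groups. It had 443, 828 and 774 CPM in si-NC and 602, 331 and 628 CPM after silencing, with a log2 fold change of -0.39, a standard error of 0.30 and an adjusted p of 0.348. EIF4A3, the helicase of the exon junction complex, came to 0.15 on the log2 scale (adjusted p = 0.0716). EIF4E2, a cap-binding relative of EIF4E, had 0.16 (adjusted p = 0.296) and EIF4ENIF1, which carries eIF4E into the nucleus, 0.23 (adjusted p = 0.121).

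Of the 13 genes with eIF2 names, 2 were called higher and 1 lower (23.1%, against 35.9% of all tested genes), while the groups did not overlap for 8 of them, 5 higher and 3 lower, against 50.9% of all tested genes. The subunits of eIF2 and of its exchange factor eIF2B make up 8 of the 13, of which EIF2S1 and EIF2B5 were called, both higher. EIF2S1, the subunit that stress kinases phosphorylate, had 176, 177 and 184 CPM in si-NC and 204, 226 and 217 CPM after silencing (log2 fold change 0.27, SE 0.06, adjusted p = 0.0116). EIF2S2 and EIF2S3, the other subunits, were not called, with log2 fold changes of -0.16 (adjusted p = 0.222) and 0.17 (adjusted p = 0.0527). The EIF2S3 groups did not overlap, and the gene was called without si-METTL16 replicate 3 (adjusted p = 0.0396), with limma on voom values (0.0496) and with at least 10 counts in every sample (0.0471). Among the subunits of the exchange factor, EIF2B5, which holds the catalytic part, rose from 77.3, 70.2 and 77.2 CPM to 88.7, 95.7 and 89.1 CPM (log2 fold change 0.28, SE 0.07, adjusted p = 0.0186). Its call was lost without si-NC replicate 2 (adjusted p = 0.0644) or si-METTL16 replicate 2 (0.0624), and with limma on log2(FPKM + 1) (0.0514). EIF2B1, EIF2B2 and EIF2B3 had positive log2 fold changes of 0.09, 0.39 and 0.25 and EIF2B4 a negative one of -0.26, none of them called. EIF2D, which delivers tRNA without GTP, fell from 35.4, 27.6 and 34.9 CPM to 22.8, 23.1 and 23.9 CPM (log2 fold change -0.49, SE 0.11, adjusted p = 0.0151), and was not called without si-NC replicate 3 (0.0532). EIF2A came to 0.35 on the log2 scale (adjusted p = 0.188), with 1 of its si-METTL16 samples at 166 CPM and the others at 119 and 100 CPM. The kinase genes EIF2AK1 and EIF2AK4, for the heme and amino acid sensors, had log2 fold changes of 0.02 and -0.21 (adjusted p = 0.887 and 0.07). EIF2AK4 was called without si-METTL16 replicate 2 (0.0351) and EIF2B2 also without it (0.0327).

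EIF5A, a hypusine-bearing factor that helps ribosomes through peptide bond formation, and its retrocopy EIF5AL1 rose side by side. EIF5A had 207, 233 and 209 CPM in si-NC and 251, 273 and 268 CPM after silencing (log2 fold change 0.29, SE 0.07, adjusted p = 0.0145). EIF5AL1 had 49.8, 51.5 and 46.0 CPM against 58.2, 64.2 and 60.4 CPM (log2 fold change 0.31, SE 0.08, adjusted p = 0.0191). Reads of the pair can be shared, so EIF5AL1 is no separate evidence. Exons of EIF5A and of GPS2 on the opposite strand share 241 bases, and GPS2 had 5713 counts against 24310 for EIF5A. EIF5A lost its call without si-NC replicate 1 or 3 (0.0504 and 0.0592), and EIF5AL1 without si-NC replicate 3 or si-METTL16 replicate 2 (0.0664 and 0.0632). Of the 5 genes of the eIF5 group, 4 were called (80%, against 35.9% of all tested genes), and 2 without si-NC replicate 3. The 4 include EIF5AL1. With near-identical genes summed, so that EIF5AL1 was counted within EIF5A, 3 eIF5 genes were called. EIF5A2, the paralog expressed in some tumors, was not called (-0.12 on the log2 scale, adjusted p = 0.327).

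Ratios between paralogs were compared in 6 pairs, as log2 CPM of the first gene minus that of the second. An exact two-sided permutation test of 3 samples against 3 cannot go below p = 0.1. The ratio of EIF5A to EIF5A2 was 1.49 ± 0.15 (SD, n = 3) in the controls and 1.90 ± 0.09 after silencing on the log2 scale. For EIF4E to EIF4E2 it was -1.11 ± 0.05 and -0.73 ± 0.18. In both pairs the groups did not overlap, with exact p = 0.1 and an adjusted p of 0.3 over the 6 pairs. The ratios of EIF4A1 to EIF4A2 (0.33 and 0.26, exact p = 0.8), EIF4G1 to EIF4G3 (1.49 and 1.39, exact p = 0.2), EIF4EBP1 to EIF4EBP2 (-1.74 and -2.05, exact p = 0.2) and EIF1 to EIF1B (1.78 and 1.99, exact p = 0.4) overlapped between the groups.

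Many factor genes have processed pseudogenes, and for some of these genes the table assigned a large part of the reads to pseudogene rows. Of the counts of a gene and its pseudogene rows, the pseudogenes held 50.3% for EIF4E, 33.7% for EIF1AX, 29.9% for EIF3F, 26.5% for EIF4B, 23.7% for EIF5A, 23.2% for EIF2S2, 22.1% for EIF4A1 and 11% for EIF4H. In every other factor gene with pseudogene rows their share was at most 0.605%, the value for EIF1. How reads with several matches were placed is not given in the sources used here. The copies were therefore tested as rows of the same fit, a check chosen after the data were seen. EIF4EP2 came to 0.51 on the log2 scale (adjusted p = 0.00161), next to 0.53 for EIF4E. EIF3FP3 had 0.76 (adjusted p = 7.36e-04) next to 0.67 for EIF3F, and EIF1AXP1 had -0.52 (adjusted p = 0.017) next to -0.88 for EIF1AX. The EIF1AXP1 call was lost without si-METTL16 replicate 1 (0.0504) or 3 (0.0506). Reads can be shared between a gene and its copies, so the copies are no separate measure of any of these genes. For EIF4B the copies were more even than the gene. EIF4BP7 was counted at 167, 156 and 172 CPM in si-NC and at 133, 123 and 112 CPM after silencing, a log2 fold change of -0.43 (SE 0.08, adjusted p = 0.0052). EIF4BP6 and EIF4BP3 had -0.35 and -0.44 (adjusted p = 0.0077 and 0.0269), and EIF4BP3 kept its call in 1 of the 6 fits on 5 samples, the one without si-NC replicate 3 (0.0557 to 0.0772 in the other 5). When the pseudogene rows were added to their parent genes, the same 24 factor genes were called. EIF2S3B, a relative of EIF2S3, showed the sharpest unevenness, with 20.6, 2.53 and 2.45 CPM in si-NC and 2.80, 25.5 and 1.17 CPM after silencing, with a log2 fold change of 0.19, an SE of 1.21 and an adjusted p of 0.919.

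**Figure D4:**
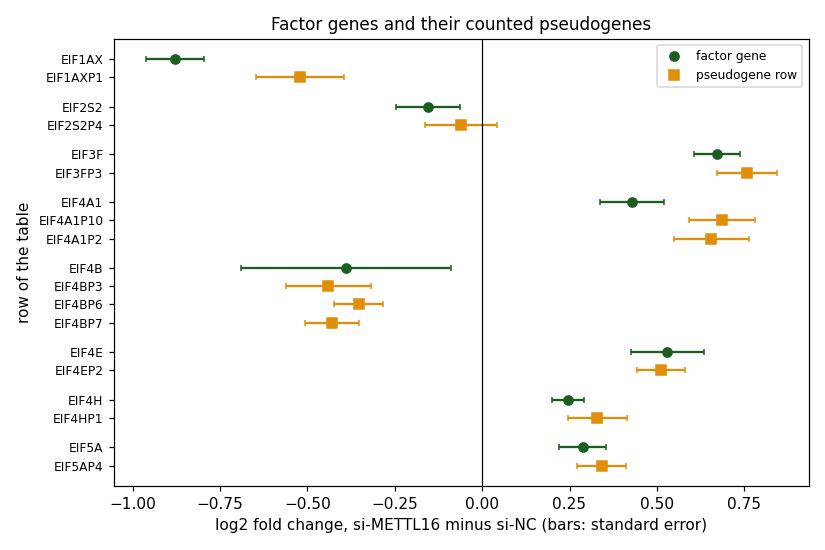
Log2 fold change (horizontal axis, si-METTL16 minus si-NC, with standard error) of 8 factor genes (circles) and of their pseudogene rows with a mean of at least 5 CPM (squares). Gene and pseudogene lay on the same side of 0 in all 8 families, but reads can be shared between them. EIF2S2 and EIF2S2P4, at -0.16 and -0.06, were both not called. The copies of EIF4B, at -0.44 to -0.35, had smaller errors than EIF4B itself.

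Promoter sequences (250 bases before to 50 after the start, RefSeq, GRCh38.p14) were matched for 45 of the 54 genes. For genes such as EIF4E and EIF3F, whose listed range begins farther upstream, the window lies inside that range. The E-box CACGTG, a palindrome bound by MYC and related factors, occurred in 11 of the 45 (24.4%), against 8.77% of all 27305 genes with a promoter in the set and 12.7% of the tested genes among them. The windows are shown for the genes of the cap-binding complex and eIF3 that changed, each in the direction of its gene, with the E-box in capitals.
EIF4E (chr4:98929341-98929370, minus strand): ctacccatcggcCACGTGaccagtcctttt
EIF4E (chr4:98929188-98929217, minus strand): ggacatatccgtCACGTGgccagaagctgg
EIF4G1 (chr3:184314450-184314479, plus strand): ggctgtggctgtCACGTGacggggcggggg
EIF4G1 (chr3:184314527-184314556, plus strand): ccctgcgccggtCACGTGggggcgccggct
EIF4H (chr7:74174145-74174174, plus strand): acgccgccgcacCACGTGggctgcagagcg
EIF3F (chr11:7987257-7987286, plus strand): aaagctctagctCACGTGgtgtatattcag
The letters did not go with 1 direction. EIF4E, EIF4H and EIF3F rose and EIF4G1 fell, while EIF1B, EIF2B3, EIF3K, EIF4A3, EIF4B and EIF5A2, which hold the motif as well, were not called, and EIF4EBP3 was not tested. Over all tested genes, 35.9% were called, 18.4% higher and 17.5% lower. A start with a C followed by 4 bases that are each C or T, the beginning of the TOP motif of mRNAs for the translation machinery, was found in 10 of 45 (22.2%) against 5.14% of all genes in the set and 7.34% of the tested genes. These were EIF2A, EIF2D, EIF2S3, EIF2S3B, EIF3D, EIF3F, EIF3K, EIF3M, EIF4A2 and EIF4B. Of them EIF3F and EIF4A2 were called higher and EIF2D lower, against the same 18.4% and 17.5% of all tested genes. The CRE TGACGTCA and the amino acid response core TTGCATCA, searched on both strands, occurred in 0 of 45 windows, against 2.25% and 1.08% of all genes and 3.75% and 0.674% of the tested genes. CCAAT and the GC box GGGCGG were found on either strand in 42.2% and 75.6% of the factor genes, against 39.7% and 48.3% of all genes and 43.1% and 77.8% of the tested genes.

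Genes that act beside the initiation factors were taken from a list of 39 elongation, termination, poly(A)-binding and regulatory genes. Of them, 12 were called higher and 9 lower (53.8%, against 35.9% of all tested genes), with a median log2 fold change of -0.01. The lowest value belonged to BZW2, a mimic of eIF5 that competes for eIF2. It fell from 86.0, 92.2 and 89.7 CPM to 23.1, 29.4 and 28.4 CPM, a log2 fold change of -1.73 (SE 0.10, adjusted p = 1.14e-04), whereas its paralog BZW1 was not called (0.03, adjusted p = 0.857). PAIP2B and PAIP2, repressors that hold poly(A)-binding protein, had log2 fold changes of -1.13 and -0.85 (adjusted p = 5.91e-04 and 0.00459). The highest values were those of PPP1R15A, a phosphatase subunit for phosphorylated eIF2 (0.93, adjusted p = 0.00982), PABPC4, a poly(A)-binding protein (0.67, adjusted p = 3.98e-04), and RPS6KB1, the S6 kinase (0.58, adjusted p = 0.0012). PPP1R15A had 32.9, 30.4 and 31.9 CPM in si-NC and 80.0, 55.7 and 45.4 CPM after silencing, all apart from the controls but spread among themselves.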

How the data were processed

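RNA-seq of 6 PANC-1 samples was used, 3 per group, with groups read from the sample titles. Raw counts per gene and FPKM values were deposited by the authors; the latter equal the counts divided by a fixed length per gene and by the total count. The submitters' processing notes name HISAT2 2.0.4, StringTie 1.3.0 and the build GRCh38; the annotation release, the treatment of reads with several matches and the use of strand are not given in the sources used here. Of the 54 factor genes, 14 have the same coordinates in GENCODE v44. The methods name limma for this comparison. Because counts were deposited, edgeR 4.0.16 (TMM, filterByExpr, glmQLFit and glmQLFTest, Benjamini-Hochberg adjustment over 15089 genes, threshold 0.05) in R 4.3.3 was the main test, and limma 3.58.1 and DESeq2 1.42.0 were alternatives. All adjusted p-values of genes are from edgeR unless stated. The standard error is the absolute log2 fold change over the root of F. Paralog ratios used log2 CPM with a prior count of 2. The p-values set the difference between the groups against the spread between these samples. Whether that spread is between replicates or also between siRNAs is not stated. The scripts were tested on simulated data. All factor genes were to be named, with values per sample for called genes and for EIF2S1, EIF3A, EIF3B, EIF4E, EIF4G1, EIF4A1, EIF4EBP1, EIF5, EIF5A and EIF6; of the partner list, the 3 highest and 3 lowest called log2 fold changes. BZW1, EIF4B, EIF2A and EIF2S3B were given beyond that rule, after their values were seen. The genes, lists and tests were chosen with earlier results of these data known. Replicates were distinct libraries, with a chi-square per degree of freedom of at least 14.7 within groups. The MeRIP-seq, cell, mouse and tissue experiments were not analysed here.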

Additional observations from a re-analysis of the deposited data

How the results depend on the processing

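All 24 called factor genes kept their direction under every alternative, and 15 of them kept their call in each fit that left out a sample. The same 24 genes were called with DESeq2 size factors, total counts only, the DESeq2 Wald test and limma on log2(FPKM + 0.1). When each sample was left out, the number of factor genes called lower ranged from 6 (without si-NC replicate 1, and without si-METTL16 replicate 3) to 10, against 11 with all samples. That of eIF3 genes called ranged from 3 to 5 and of eIF5 genes called from 2 to 4. Calls also became fewer over the whole table in these fits, 4159 to 4526 genes against 5418 with all 6 samples. The median log2 fold change of the factor genes ranged from 0.0014 (without si-METTL16 replicate 2) to 0.075. At an adjusted p under 0.01, 3035 genes were called over the whole table, with 5 factor genes lower, 0 of eIF2 (3 of its 13 genes pass at 0.05 in edgeR, 8 have an unadjusted p under 0.05, and 3 are called by the DESeq2 Wald test), 3 of eIF3 and 2 of eIF5. The median of the factor genes was 0.012 in both limma fits of FPKM. Whether the replicate numbers pair the samples across the groups is not stated. Deviations of same-numbered samples correlated by at most 0.0371, with a mean of 0.031 against -0.015 for samples with different numbers. Each of the 6 samples correlated best with its own number. With the replicate block, 24 factor genes were called, 23 of them shared, with EIF4EBP2 lost (adjusted p = 0.0591) and EIF2B2 gained (0.0345), and the pseudogene row EIF4BP3 lost its call (0.0603). Genes that were not called changed sign in places. With total counts only, limma at a pseudocount of 1 and limma at 0.1, EIF2AK1 was -0.0059, -0.0064 and -0.0066 and EIF3C -0.013, -0.0098 and -0.010, while EIF3C summed with EIF3CL was -0.0093. EIF2S3B was -0.24 with the replicate block, -0.27 with voom, and with limma -0.015 at a pseudocount of 1 and -0.17 at 0.1. Leaving out a sample gave -0.025 to 0.065 for EIF2AK1, -2.11 to 1.96 for EIF2S3B, -0.058 to 0.037 for EIF3C, -0.00196 to 0.083 for EIF3K, -0.0044 to 0.12 for EIF3M and -0.21 to 0.0078 for the ratio of EIF4A1 to EIF4A2. The cause of these shifts was not tested. Adding pseudogene rows to their parents and summing near-identical genes were chosen after the data were seen. The fit with near-identical genes summed called 23 factor genes, all among the 24, with EIF5AL1 no longer a row of its own. The 4 genes that did not pass the filter on low counts were not tested, and these counts give no result for them. For EIF4EBP3, 507 exonic bases are shared with ANKHD1-EIF4EBP3 on the same strand. That row held 10589 counts, against 43 for EIF4EBP3.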
